A study of Mus musculus with 34 samples.

Results

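The genes described here are 37 genes of the extracellular matrix that were taken by symbol: 13 collagen genes, the laminin chains and other basement membrane genes, matrix glycoproteins and small proteoglycans, matrix proteases with their inhibitors, 2 crosslinking enzymes, and Itih5, whose protein binds hyaluronan. Of the 14086 genes with normalized counts, 36 were members; Lox was not analysed here. A mean normalized count of at least 10 over all libraries was reached by 26 members among 6592 genes, and 20 members were among 1659 genes with deposited z-scores.

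RNA was sequenced from mouse liver in a study of tumours driven by beta-catenin, the signal carrier of the Wnt pathway, after hydrodynamic injection, in which a large volume pushed quickly into the tail vein carries DNA into hepatocytes. Normalized counts covered 2 libraries of wild type liver, 3 labelled beta-catenin skip1 isoform alone, 2 labelled skip2 isoform alone, 5 with skip1 induced, 2 with skip2 induced and 4 with dN90 beta-catenin induced, a form that lacks the amino-terminal end where degradation is triggered. Z-scores covered a further 4 libraries of subtype A, 9 of subtype B and 3 labelled sgActin and YAPS127A, a guide against actin together with an activated YAP protein. The labels give the same injection protocol and the same liver tumour source for every sample, and they do not say what was added in the induced groups or which animals the libraries came from. Strain, sex and age were not given in the sources used here. The skip2 groups follow the source label, since another label field of the same 4 samples reads skip1. Separate animals are not stated for any group, so p-values measure only the spread between these samples, which may be technical.

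Estimated reads per library ran from 361772 to 933147, highest in the 2 skip2 induced libraries, and no depth can be given for z-scores. Ctnnb1, which encodes beta-catenin, had normalized counts of 125 to 177 in the 7 libraries that were not induced, 580 to 1266 with skip1 induced, 444 to 457 with skip2 induced and 134 to 199 with dN90 induced. The dN90 range overlapped that of the not induced libraries and its difference from wild type was not called (log2 difference 0.23, limma adjusted p 0.559). Counts per gene do not separate the isoforms. The labelled liver cells were checked by hepatocyte markers, which summed to 21720 to 59880 normalized counts in induced and 63120 to 86860 in other libraries. Alb had the highest level in this list, with group means of 37820 to 51890 in not induced and 9471 to 21990 in induced groups. The group means of Trf and Apoa1 overlapped between conditions, and the other listed genes with counts were lower in every induced group.

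The extracellular matrix of liver is thin. Fibrillar collagens form the cables around vessels and of scars, while basement membranes are sheets in which a laminin network and a collagen IV network are tied together by nidogens and by the heparan sulfate proteoglycans perlecan and agrin. Stellate cells, portal fibroblasts, endothelium and bile duct cells are known sources of these proteins, hepatocytes make much of the plasma fibronectin, and the sheet-like basement membrane that is absent from most of the normal sinusoid appears around ducts and vessels. Membrane-bound metalloproteinases cut the network and TIMP proteins hold them in check.

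Some start regions are shown before the values, those of the collagen IV pair and of 3 members whose induced libraries stood clear of the rest. Col4a1 and Col4a2 encode the paired chains of collagen IV and are read in opposite directions from a shared stretch on chromosome 8, with Col4a1 at 11198423 to 11312826 on the minus strand and Col4a2 at 11312805 to 11449287 on the plus strand (GRCm38). The sequences are RefSeq windows on GRCm38.p6, 250 bases before to 50 bases after a start and 5′ to 3′ on the plus strand. Capitals mark the 22 bases that lie in both genes in the collagen IV window, GGAATG on either strand for Nid1, GGAATG and CAGACA on either strand for Col3a1, and CAGACA on either strand for Lamb2. Capitals in the first window span the stretch between the annotated starts, where reads could be told apart only by strand. The libraries were strand-specific per the labels, and whether counting used the strand is not given in the sources used here.
Col4a1 and Col4a2, chr8:11312555-11312854: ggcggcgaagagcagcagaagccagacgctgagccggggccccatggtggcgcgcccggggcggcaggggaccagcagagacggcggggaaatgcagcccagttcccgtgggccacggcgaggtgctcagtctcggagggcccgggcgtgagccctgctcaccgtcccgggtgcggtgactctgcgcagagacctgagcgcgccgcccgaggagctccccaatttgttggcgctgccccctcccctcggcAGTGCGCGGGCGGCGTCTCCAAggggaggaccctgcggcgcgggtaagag
Nid1, chr13:13437352-13437651: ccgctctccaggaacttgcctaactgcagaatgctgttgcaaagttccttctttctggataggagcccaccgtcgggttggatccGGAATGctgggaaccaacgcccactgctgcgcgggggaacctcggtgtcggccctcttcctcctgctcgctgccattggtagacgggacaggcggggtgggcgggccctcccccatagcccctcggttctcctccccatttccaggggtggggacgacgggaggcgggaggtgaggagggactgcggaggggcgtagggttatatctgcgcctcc
Col3a1, chr1:45311288-45311587: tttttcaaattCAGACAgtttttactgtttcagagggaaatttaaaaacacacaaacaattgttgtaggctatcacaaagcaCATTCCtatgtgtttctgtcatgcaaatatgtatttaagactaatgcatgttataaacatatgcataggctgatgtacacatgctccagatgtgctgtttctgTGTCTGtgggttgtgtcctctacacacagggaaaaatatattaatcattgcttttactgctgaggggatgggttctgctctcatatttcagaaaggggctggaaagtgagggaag
Lamb2, chr9:108479612-108479911: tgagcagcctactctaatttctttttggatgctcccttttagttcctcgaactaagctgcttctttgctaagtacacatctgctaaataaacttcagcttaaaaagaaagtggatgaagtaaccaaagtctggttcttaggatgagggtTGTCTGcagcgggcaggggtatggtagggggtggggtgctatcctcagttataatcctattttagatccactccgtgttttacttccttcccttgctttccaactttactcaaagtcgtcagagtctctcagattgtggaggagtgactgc

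The collagen IV window is 73.7% G and C and the Col3a1 window 37.7%, with Nid1 at 64.7% and Lamb2 at 44% in between. Windows were found for 25 of the 37 genes, in 28 windows, and 5 motifs were searched on both strands. GGAATG, the core bound by TEAD factors, was in 5 member windows (17.9%; Col18a1, Col3a1, Col6a2, Nid1 and Timp1) and in 14.7% of all 32851 windows. CAGACA, a SMAD element, was in 6 member windows (21.4%) and in 21% of all. TGACTCA, the AP-1 site, was in 1 (3.57%, Col6a1) against 5.2%, and the TCF/LEF element CTTTGAT and the SMAD palindrome GTCTAGAC were in none, against 3.73% and 0.213%. These shares describe letters in short windows. The member shares lie close to those of all promoters.

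Most tested members, among them Nid1, Lamb2, Lama5, Col1a1 and Col4a1, were higher in induced samples than in liver that was not induced. In the comparison of the 3 induced groups with wild type, skip1 alone and skip2 alone, each group weighted equally, 19 of the 26 tested members rose, 1 fell and 6 did not pass the test. The background was 17.2% of all tested genes higher and 20.8% lower. A call here means an adjusted p under 0.05 from limma on log2(normalized count + 1), with Benjamini-Hochberg adjustment over all 6592 genes. The median log2 difference was 1.51 over the tested members and -0.01 over all tested genes. Of these members, 8 had a mean under 10 in the not induced libraries and entered the test through their induced level, so the count is a description. Among the 18 members with a mean of at least 10 in both conditions, 11 rose and 1 fell. In 12 of the 26 every induced library lay above every library that was not induced, against 3.11% of tested genes, and in none did every induced library lie below, against 5.37%. Of those 12, Col1a1, Col1a2, Col6a3, Lama5, Lamb2 and Timp2 had a not induced mean under 10. This count is therefore also a description. The calls numbered 20 each time 1 of the 18 libraries was left out.

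The fibrillar collagens form the tensile fibres of scar and stroma. Col1a1 encodes the main chain of collagen I (chromosome 11, 94936224 to 94953042). Its normalized count was 1.13 and 3.32 in wild type, 8.22, 5.75 and 3.20 with skip1 alone and 1.16 and 6.87 with skip2 alone. With skip1 induced it was 30.1, 31.4, 20.4, 60.5 and 31.9, with skip2 induced 53.3 and 55.4, and with dN90 induced 18.9, 24.5, 12.5 and 56.6. The 2 conditions did not overlap, and 1 dN90 library stood well above its other 3. The log2 difference was 3.06 (SE 0.32, limma adjusted p 1.45e-07), an 8.37-fold difference in count + 1. Col1a2, its partner chain, was 2.27 to 11 (median 5.33) in the 7 not induced and 18.8 to 73.6 (median 33.4) in the 11 induced libraries, a log2 difference of 2.65 (SE 0.25). The per-library log2 ratio of Col1a1 to Col1a2 ran from -0.62 to 0 in not induced and from -0.76 to 0.47 in induced libraries, so the ranges of the paired chains overlapped.

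Col3a1 encodes collagen III, the fine reticular fibre of the liver lobule (chromosome 1, 45311538 to 45349706). Its normalized count was 11.3 and 16.6 in wild type, 37.8, 27.6 and 19.2 with skip1 alone and 22 and 26.1 with skip2 alone. It was 90.4, 87.0, 79.9, 122 and 114 with skip1 induced, 179 and 150 with skip2 induced, and 48.0, 53.0, 41.4 and 110 with dN90 induced. Every induced library was above every other library, with 3 dN90 libraries nearest to the boundary. The log2 difference was 2.18 (SE 0.19, limma adjusted p 1.64e-08). Col5a1 and Col5a2, chains of the collagen V that nucleates fibrils, were under the mean of 10. In a fit with no filter on low counts, which held 36 members and called 25 higher and 1 lower (16.3% and 11% of its 14086 genes), Col5a2 was higher by 2.10 and Col5a1 by 1.1 on the log2 scale.

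Collagen IV is the sheet-forming collagen of every basement membrane. Col4a1 was 2.27 and 19.9 in wild type, 13.2, 23 and 11.7 with skip1 alone and 12.7 and 16.5 with skip2 alone. It was 43.0, 39.8, 45.5, 64.1 and 43.6 with skip1 induced, 95.6 and 109 with skip2 induced, and 50.3, 51.0, 47.7 and 98.4 with dN90 induced. The conditions did not overlap, and the wild type pair was far apart. The log2 difference of Col4a1 was 2.38 (SE 0.28, limma adjusted p 7.63e-07). Col4a2 ran from 5.66 to 27.9 (median 12.5) in not induced and from 23.7 to 66.1 (median 40.5) in induced libraries, which overlap, with a log2 difference of 1.68 (SE 0.20). The log2 ratio of Col4a1 to Col4a2 was -1.03 to 0.64 (median 0.13) in not induced and -0.14 to 0.84 (median 0.70) in induced libraries. Col18a1, the endostatin precursor, which hepatocytes also make, was 159 to 466.2 in not induced and 136 to 420 in induced libraries and was not called. Col15a1, its relative in vessel walls, had a mean of 9.81; with no filter its log2 difference was 0.75.

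Col6a3, a chain of the collagen VI microfilaments that lie next to basement membranes, ran from 4.86 to 10.6 (median 7.46) in not induced and from 13.8 to 52.5 (median 35.7) in induced libraries. The ranges did not overlap and the log2 difference was 2.02 (SE 0.20). Its partner chains Col6a1 and Col6a2 were lower and were under the mean of 10. Col6a1 ran from 1.07 to 9.61 and from 2.51 to 14.0 in the same order, and Col6a2 was called with no filter (1.34). Col14a1, a collagen that sits on the surface of fibrils, was 24.9 to 54.9 in not induced and 18.8 to 69.9 in induced libraries and was not called.

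**Figure D1:**
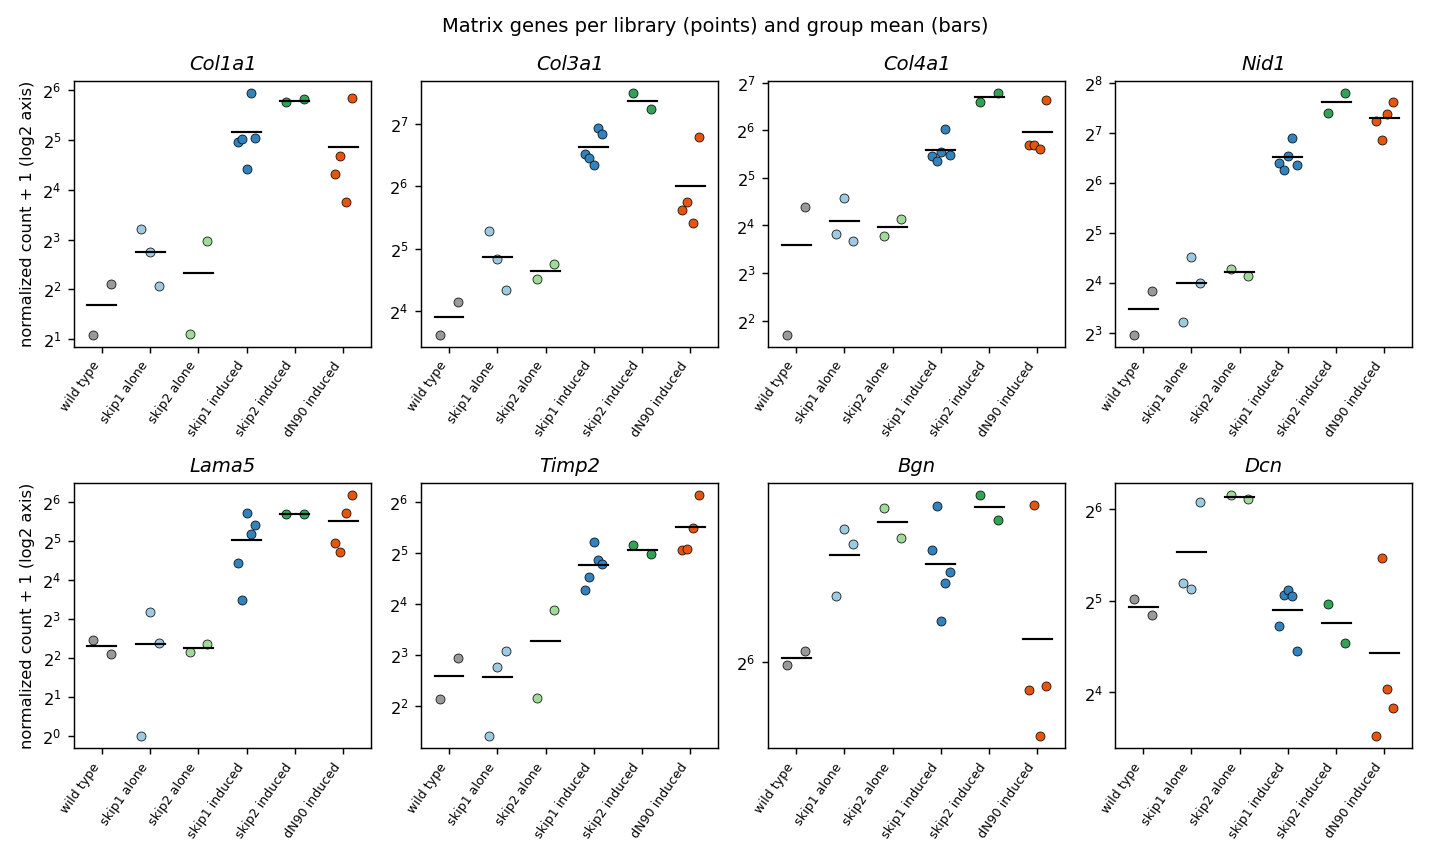
Normalized count + 1 of 8 matrix genes on log2 axes, with 1 point per library and a bar at each group mean. The induced libraries of Col1a1, Col3a1, Col4a1, Nid1, Lama5 and Timp2 lie above all others, Bgn overlaps between conditions, and the highest values of Dcn are in libraries that were not induced.

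Laminins are trimers of an alpha, a beta and a gamma chain that start basement membrane assembly. Lama5, the alpha chain of ducts and vessels in adult tissue, was 4.53 and 3.32 in wild type, 0, 8.05 and 4.26 with skip1 alone and 3.47 and 4.12 with skip2 alone. It was 20.4, 10.2, 51.1, 35.2 and 41.5 with skip1 induced, 51.0 and 50.6 with skip2 induced, and 29.9, 25.5, 51.4 and 71.5 with dN90 induced. All 11 induced libraries were higher than the other 7, and of the induced groups skip1 had the widest relative range. The log2 difference was 3.17 (SE 0.38, limma adjusted p 1.20e-06). Lamc1, the gamma chain common to most laminins, rose less, from 14.8 to 30.9 (median 19.2) in not induced to 32.5 to 52.0 (median 42.6) in induced libraries, by 1.07 on the log2 scale (SE 0.15).

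The beta chains behaved differently from each other. Lamb1 was 6.80 and 10.8 in wild type, 21.4, 6.90 and 17.1 with skip1 alone, 10.4 and 19.2 with skip2 alone, 17.2, 19.4, 7.43, 18.1 and 12.8 with skip1 induced, 13.3 and 14.3 with skip2 induced, and 6.29, 9.18, 7.53 and 9.93 with dN90 induced. Lamb2 in the same order was 1.13 and 4.99, then 8.22, 3.45 and 3.20, then 0 and 2.75, then 20.4, 17.6, 12.1, 34.3 and 17, then 46.9 and 42.9, then 34.6, 26.5, 36.4 and 56.6. The range of Lamb1 in induced libraries, 6.29 to 19.4, overlapped that in the others, 6.80 to 21.4, while Lamb2 was higher in every induced library than in every other. The log2 difference was 3.28 for Lamb2 (SE 0.30, limma adjusted p 2.92e-08) and -0.02 for Lamb1 (SE 0.25, 95% interval -0.54 to 0.50), which was not called and whose sign turns with upper-quartile scaling, array weights, total scaling and some left-out libraries. The log2 ratio of Lamb1 to Lamb2 within a library, both with 1 added, was 0.83 to 3.51 (median 1.87) in not induced libraries and -2.40 to 0.14 (median -1.43) in induced libraries. Within the induced libraries the median ratio was -0.39 for skip1, -1.63 for skip2 and -2.21 for dN90. Per kilobase of exon, the mean Lamb2 level was 0.60 in not induced and 5.54 in induced libraries, and that of Lamb1 2.26 and 2.11.

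**Figure D2:**
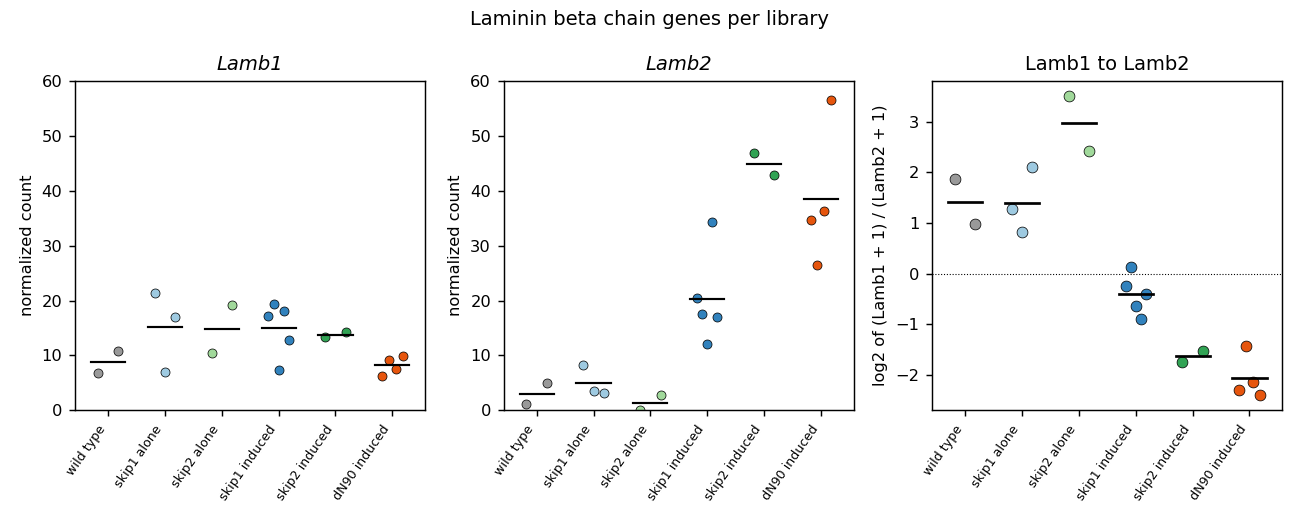
Normalized counts of Lamb1 and Lamb2 and the log2 ratio of Lamb1 + 1 to Lamb2 + 1, with 1 point per library and a bar at each group mean. The ratio lies between 0.83 and 3.51 in the not induced libraries and between -2.40 and 0.14 in the induced ones.

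Nidogen-1 and nidogen-2 link the laminin and collagen IV networks. Nid1 (chromosome 13, 13437551 to 13512269) was 6.80 and 13.3 in wild type, 8.22, 21.9 and 14.9 with skip1 alone and 18.5 and 16.5 with skip2 alone. It was 83.9, 75.8, 92.0, 118 and 80.9 with skip1 induced, 169 and 222 with skip2 induced, and 151, 114, 166 and 195 with dN90 induced. Among the members Nid1 had the widest separation: its lowest induced value, 75.8, was above its highest other value, 21.9, and the log2 difference was 3.29 (SE 0.19, limma adjusted p 4.77e-11), a 9.75-fold difference in count + 1. Nid2 was 4.12 to 16.1 (median 8.53) in not induced and 14.3 to 32.8 (median 21.2) in induced libraries, overlapping, with a log2 difference of 1.55 (SE 0.19).

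Hspg2 and Agrn encode the heparan sulfate proteoglycans perlecan and agrin. Hspg2 ran from 18.1 to 37.1 (median 34.5) in not induced and from 42.5 to 113 (median 62.2) in induced libraries, and Agrn from 14.2 to 34.5 (median 25) and from 46.3 to 152 (median 78.8). Neither gene overlapped between the conditions. The log2 differences were 1.34 (SE 0.19) for Hspg2 and 1.64 (SE 0.22) for Agrn. All 4 tested genes of these linkers and proteoglycans rose. So did 3 of 4 tested laminin chains, 2 of 3 basement membrane collagens and 3 of 3 fibrillar collagens. Among these, Nid2, Lama5, Lamb2, Col1a1 and Col1a2 had a not induced mean under 10 and entered the test through their induced level. The counts by role are therefore also a description.

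Among the glycoproteins, fibronectin was present at a level of its own. Fn1, which hepatocytes secrete into plasma, was 1244 to 2004 (median 1468) in not induced and 1294 to 2387 (median 1645) in induced libraries, at 178 and 202 mean normalized counts per kilobase of exon. Its log2 difference was 0.22 (SE 0.15, 95% interval -0.08 to 0.53) and was not called. With quantile normalization the difference of Fn1 was 1.18 and was called, as were 0.36 with upper-quartile scaling and 0.75 with scaling by total. Fbn1, the fibrillin of elastic microfibrils, was 4.53 to 15.1 (median 8.09) and 7.87 to 44.1 (median 21.4), and rose by 1.48 (SE 0.24). Sparc, a collagen-binding protein that helps fibrils form, was 26.6 to 42.6 (median 31.6) and 40.1 to 124 (median 85.0) and rose by 1.36 (SE 0.16). Both overlapped between conditions through dN90 libraries only. Mgp, the matrix Gla protein that holds back calcification, had a mean of 1.25 and was at 0 in 4 of 7 not induced and 2 of 11 induced libraries.

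Small leucine-rich proteoglycans coat collagen fibrils, and neither of the tested genes rose. Decorin, Dcn (chromosome 10, 97479609 to 97518143), was 31.4 and 27.8 in wild type, 35.6, 34.0 and 66.8 with skip1 alone and 70.5 and 68.3 with skip2 alone. It was 25.4, 32.5, 33.8, 32.3 and 20.9 with skip1 induced, 30.2 and 22.2 with skip2 induced, and 10.5, 43.2, 15.4 and 13.2 with dN90 induced. The ranges overlapped, and the highest values were the skip2 alone pair and 1 skip1 alone library. Dcn was the only tested member to fall, and its log2 difference was -0.90 (SE 0.23; limma adjusted p 0.00373), and it was not called with scaling by total (-0.41). Biglycan, Bgn, was 62.3 to 112 (median 98.0) in not induced and 47.7 to 118 (median 88.4) in induced libraries and was not called. Lumican, Lum, was under the mean of 10, at 1.07 to 6.58 and 0.93 to 7.82.

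Among remodelling genes both sides of the balance were higher. Mmp14, a membrane-anchored metalloproteinase that cuts collagen and activates Mmp2, was 5.66 to 19.9 (median 13.7) in not induced and 15.7 to 78.0 (median 44.0) in induced libraries. Timp2, an inhibitor that binds Mmp14, was 3.40 and 6.65 in wild type, 1.64, 5.75 and 7.46 with skip1 alone, 3.47 and 13.7 with skip2 alone, 18.3, 22.2, 36.2, 28.0 and 26.6 with skip1 induced, 34.5 and 30.4 with skip2 induced, and 32.3, 32.6, 43.9 and 69.5 with dN90 induced. Mmp14 overlapped between conditions through 1 skip1 induced library and Timp2 did not overlap. The log2 differences were 1.95 (SE 0.26) for Mmp14 and 2.42 (SE 0.28, limma adjusted p 5.79e-07) for Timp2. The log2 ratio of Mmp14 to Timp2 was 0 to 1.52 (median 1.43) in not induced and -0.47 to 1.33 (median 0.42) in induced libraries, which overlap. Timp3, the inhibitor that stays bound to matrix, was 9.59 to 32.9 (median 23) and 25.2 to 79.0 (median 34.9) and rose by 0.94 (SE 0.23).

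Timp1, an inhibitor induced in injured liver, was listed at 0 in all 7 not induced libraries and in 2 of 11 induced ones, where its highest value was 3.92. Mmp2, a gelatinase made by stellate cells, was 0 to 6.87 (median 1.64) and 1.08 to 8.52 (median 4.63). Both were under the mean of 10 and were called with no filter. Loxl1, an enzyme that crosslinks elastin, was at most 1.64 in not induced and 2.79 in induced libraries, at 0 in 5 of 7 and 4 of 11.

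Per kilobase of exon, the order of mean levels in not induced libraries was Fn1 (178), Col18a1 (40.2), Bgn (36.8), Dcn (22.7) and Sparc (12), with every other member at or under 6.01. In induced libraries Fn1 (202) and Col18a1 (41.9) were still first, followed by Bgn (35.9), Sparc (30.1), Nid1 (21.9) and Col3a1 (17.6). Nid1 thus moved from 2.35 to 21.9 and Col3a1 from 4.12 to 17.6 normalized counts per kilobase, while Dcn went from 22.7 to 12.1.

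Each induced group was also compared with its own reference. Skip1 induced against skip1 alone had 17 of 26 members higher and 1 lower, with 6.55% and 8.18% of tested genes called in those directions. Skip2 induced against skip2 alone had 18 higher and 1 lower, against 6.52% and 8.42%. With no dN90 alone group to use, dN90 induced against wild type had 18 higher and 0 lower, against 10.8% and 12%. Nid1, Lamb2, Lama5, Col1a1, Col1a2, Timp2, Col4a1 and Col3a1 rose in each of the 3 comparisons. The members' median log2 difference was 1.13, 1.95 and 1.35 in that order. Without 1 library at a time the calls ran from 12 to 18, from 15 to 18 and from 12 to 19. Without wild type replicate 1 the dN90 comparison lost Agrn, Col6a3, Fbn1, Hspg2, Mmp14, Nid2 and Sparc.

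The size of these differences varied by gene. Nid1 rose by 2.59 (SE 0.27) in skip1, 3.40 (SE 0.37) in skip2 and 3.87 (SE 0.32) in dN90 samples, on the log2 scale. Lamb2 rose by 1.86 (SE 0.44), 4.57 (SE 0.60) and 3.42 (SE 0.52), where the skip2 alone libraries held only 0 and 2.75 counts. Neither spread across groups was shown to be a difference: the test of the difference between inductions called neither gene. Col4a2 rose with skip2 (2.23, SE 0.40) and dN90 (2.20, SE 0.35), and with skip1 its difference of 0.61 was not called. Col4a2 was called with skip1 when all not induced groups were the reference (1.22) and with voom scaled by total (1.13). The difference between inductions was also not called for Col4a2 (skip1 minus skip2 -1.62, limma adjusted p 0.24). Dcn fell with skip2 by 1.39 (SE 0.45, limma adjusted p 0.0433), and this call was lost when any of the 4 libraries was left out. Timp3 rose with skip1 (1.14) and dN90 (1.35), with a skip2 difference of 0.34 that was not called. Its dN90 difference was 2.06 without wild type replicate 1 and, no longer called, 0.64 without wild type replicate 2, and its skip1 call held in 15 of 20 alternatives.

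**Figure D3:**
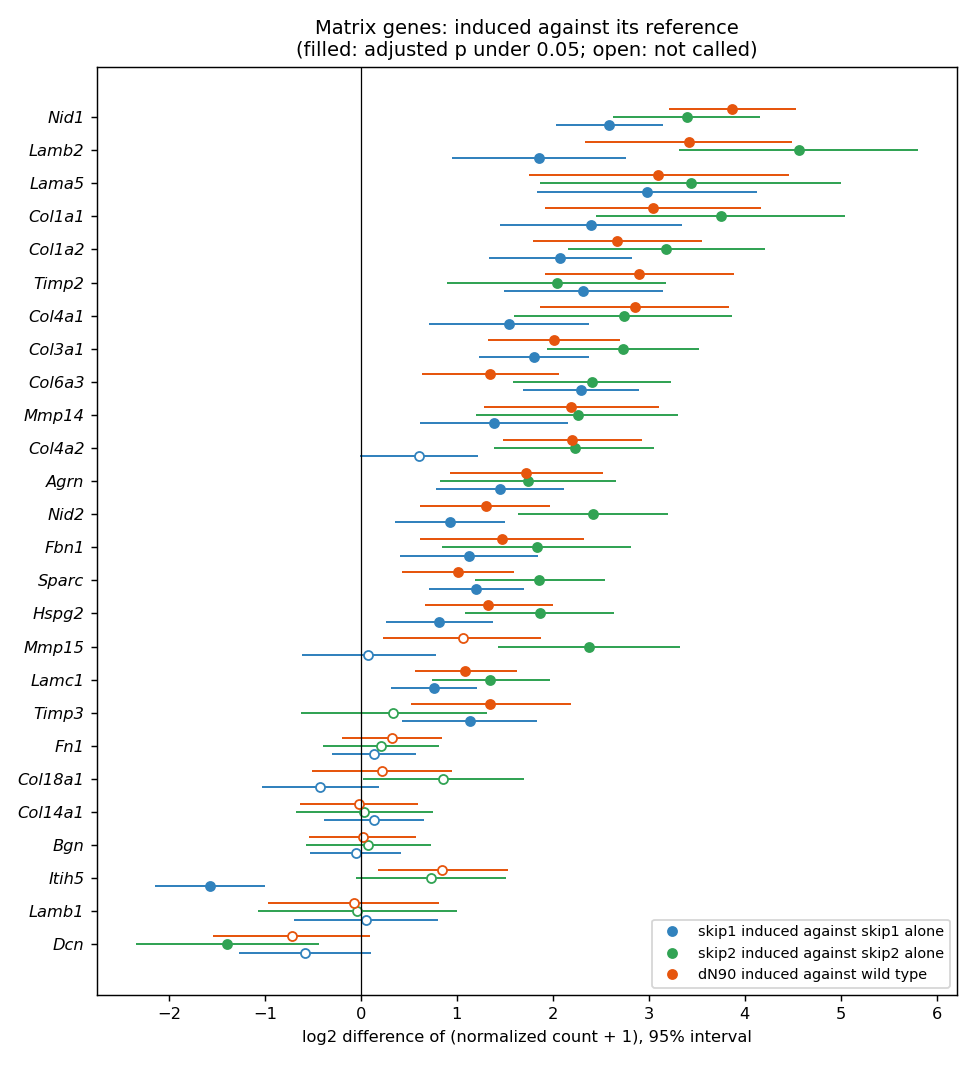
Log2 difference of normalized count + 1 for the 26 tested members in each induced group against its reference, with 95% intervals from limma, filled where the adjusted p is under 0.05. Itih5 is the gene called lower with skip1 and Dcn the gene called lower with skip2, while Nid1 is called higher in all 3 comparisons.

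Skip1 alone and skip2 alone were compared with wild type, and limma called 0 members in either comparison, as did voom on estimated reads. The background was 0% and 0.0152% of tested genes called at the adjusted threshold. In each comparison 3 members had an unadjusted p under 0.05, and the share of all genes at that threshold is not given here. The members' median log2 difference was 0.44 in both, against 0.01 and 0.03 over all tested genes. These comparisons share the wild type pair, which was far apart for Col4a1.

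Between the induced groups, most members did not pass the test. Skip2 had the highest of the 3 induced group means in 20 of 26 members, and skip1 and dN90 in 3 each. The same count over all tested genes was not made, so whether this is particular to the members was not tested. Skip1 against skip2 induced gave 0 higher and 3 lower members, with 3.09% and 0.44% of tested genes called in those directions and a median member difference of -0.69. Skip1 against dN90 induced gave 1 higher and 2 lower, against 3.17% and 1.46%, and skip2 against dN90 induced gave 2 higher and 0 lower, against 0.576% and 2.46%. The skip2 induced libraries were also the 2 deepest, and the part of depth in these differences was not tested beyond a fit with depth as a covariate.

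Itih5 encodes a heavy chain that binds hyaluronan in the matrix (chromosome 2, 10153571 to 10256529). Its normalized count was 30.6 and 14.1 in wild type, 29.6, 28.8 and 22.4 with skip1 alone and 19.6 and 20.6 with skip2 alone. It was 7.53, 6.47, 5.57, 13.5 and 10.7 with skip1 induced, 29.9 and 38.7 with skip2 induced, and 35.4, 36.7, 41.4 and 40.7 with dN90 induced. All 5 skip1 induced libraries were below every other library, though the highest of them, 13.5, was close to a wild type value of 14.1. Itih5 was lower in skip1 than in skip2 induced samples (log2 difference -1.91, SE 0.31; limma adjusted p 0.00204) and than in dN90 induced samples (-2.08, SE 0.25, limma adjusted p 1.46e-05). It fell with skip1 against skip1 alone by 1.57 (SE 0.27, limma adjusted p 0.000717). With skip2 and dN90 the differences from their references were 0.73 and 0.85 and were not called. The dN90 difference was called in 6 of 17 alternatives and moved with the wild type pair, at 1.38 (called) without replicate 1 and 0.32 without replicate 2.

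The test of the difference between inductions called Itih5 for skip1 minus skip2 (-2.30, SE 0.46, limma adjusted p 0.0477) and for skip1 minus dN90 (-2.42, SE 0.42, limma adjusted p 0.00406). The background was 0.137% of tested genes higher and 0.0303% lower for the first, and 0.789% and 0.288% for the second. The first call held in 12 of 23 alternatives and the second in 24 of 25, the exception being without wild type replicate 2 (-1.89). The differences between the induced groups themselves held in all 18 and all 20 alternatives run. For skip2 minus dN90 limma and voom called 0 members, and limma called 0.0607% of tested genes. At an unadjusted p under 0.05 there were 2 members, and the share of all genes at that threshold is not given here.

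Mmp15 encodes another membrane-anchored metalloproteinase. It was 28.3 and 19.1 in wild type, 42.8, 10.3 and 18.1 with skip1 alone, and 13.9 and 17.9 with skip2 alone. It was 29.1, 28.7, 15.8, 14.4 and 23.4 with skip1 induced, 78.6 and 94.7 with skip2 induced, and 46.4, 39.8, 65.2 and 49.7 with dN90 induced. Skip1 induced libraries lay within the range of the not induced ones, and the skip2 pair was above every other library. Mmp15 was lower in skip1 than in skip2 induced samples (-1.96, SE 0.38, limma adjusted p 0.0073) and than in dN90 induced samples (-1.17, SE 0.31, limma adjusted p 0.0277). It rose with skip2 against skip2 alone by 2.38 (SE 0.46). The difference with dN90 against wild type was 1.06 and was not called, though it was called in 7 of 17 alternatives, among them 1.30 with all not induced groups as reference. The differences between inductions were not called. Without skip2 induced replicate 1 the call against skip2 was lost (-2.09), and the call against dN90 held in 15 of 20 alternatives.

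Nid1 was lower in skip1 than in skip2 induced samples by 1.11 (SE 0.31, limma adjusted p 0.0488), a call that held in 9 of 19 alternatives, with -0.51 where depth was a covariate. Col14a1 was 69.9, 49.0, 42.7, 56.9 and 40.5 with skip1 induced, 52.9 and 45.3 with skip2 induced, and 30.7, 43.9, 18.8 and 25.8 with dN90 induced. Skip1 and dN90 overlapped for this gene. Col14a1 was higher in skip1 than in dN90 induced samples by 0.81 (SE 0.23, limma adjusted p 0.0459), a call that held in 9 of 20 alternatives. Sparc was higher in skip2 (114 and 125) than in dN90 induced samples (48.8, 51.0, 40.1 and 101) by 1.06 (SE 0.28, limma adjusted p 0.0433). Col3a1 was the other member called there, at 1.47. Both lost the call without skip2 induced replicate 1 (Col3a1 1.35, Sparc 1.13), without dN90 induced replicate 3 (1.31 and 0.90), with depth as a covariate and in a fit of only these groups.

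**Figure D4:**
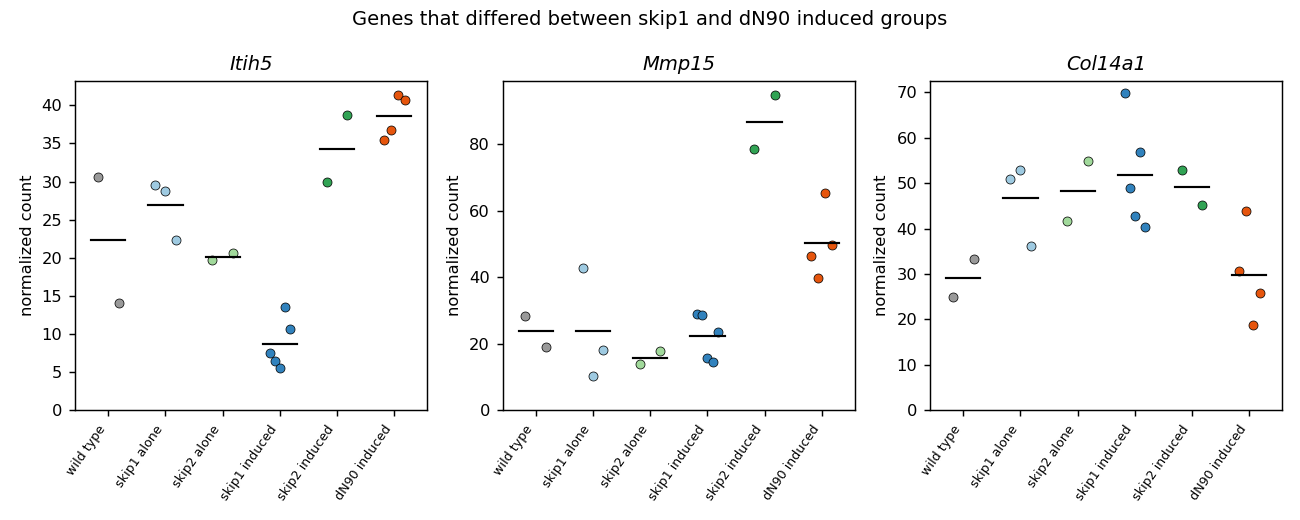
Normalized counts of Itih5, Mmp15 and Col14a1, with 1 point per library and a bar at each group mean. Itih5 is at 5.57 to 13.5 in skip1 induced libraries and at 29.9 to 41.4 in the other induced libraries, Mmp15 is highest in the skip2 pair, and Col14a1 overlaps between skip1 and dN90.

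Some libraries were high across many members. The fourth dN90 induced library, replicate 4, was the highest of its 4 libraries in 19 of 26 members, among them Col1a1 (56.6 against 12.5 to 24.5), Col3a1 (110 against 41.4 to 53.0) and Sparc (101 against 40.1 to 51.0). Skip1 induced replicate 4 was the highest of 5 in 11 members. Such counts were not made over all tested genes, so whether they are particular to the members was not tested. Bgn and Dcn went the other way in dN90, with replicate 2 highest at 113 and 43.2.

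Subtype A and subtype B could be compared only in z-scores, in which a difference is counted in SDs of the gene within the libraries scaled together and gives no fold. Of the 20 members, 11 were lower in subtype A, 1 was higher and 8 did not pass the test. Among all 1659 genes, which the authors had selected, 20.9% were lower and 40.3% higher. The median difference was -0.60 over the members and 0.19 over all genes. The members lower in subtype A were the basement membrane genes Hspg2, Agrn, Lama5, Lamb2, Lamc1, Col4a1 and Col4a2, with Sparc, Fbn1, Timp2 and Timp3. In 3 of the 20 all subtype A libraries lay below all subtype B libraries, against 4.1% of all genes, and in none did they lie above, against 34.8%.

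Perlecan, Hspg2, had z-scores of -0.51 to -0.08 (median -0.23) in 4 subtype A and 0.23 to 1.59 (median 0.67) in 9 subtype B libraries. Lama5 was -0.35 to 0.27 (median -0.04) and 0.39 to 1.05 (median 0.68), and Agrn -0.32 to 0.08 (median -0.04) and 0.14 to 1.26 (median 0.62). These 3 genes did not overlap between the subtypes. The z-score differences were -1.01 (SE 0.20, limma adjusted p 0.00154) for Hspg2, -0.74 (SE 0.13, limma adjusted p 0.000859) for Lama5 and -0.75 (SE 0.16, limma adjusted p 0.00223) for Agrn. Sparc differed by -1.03 (SE 0.25), at -0.57 to 0.29 (median -0.50) in subtype A and -0.36 to 1.32 (median 0.93) in subtype B. Timp3 differed by -1.01 (SE 0.29), Timp2 by -0.82 (SE 0.21), Col4a2 by -0.74 (SE 0.17) and Col4a1 by -0.67 (SE 0.14).

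The fibrillar collagens Col1a1, Col1a2, Col3a1 and Col5a2 were not called between the subtypes, and nor were Col6a3, Mmp14, Nid1 and Nid2. Nid1 was 0.13 to 0.70 (median 0.63) in subtype A and -0.16 to 1.13 (median 0.42) in subtype B, a difference of 0.08 (SE 0.18). Dcn, at -0.57 to 0.36 (median 0.10) in subtype A and -0.87 to -0.06 (median -0.48) in subtype B, was the member higher in subtype A, by 0.54 (SE 0.16, limma adjusted p 0.0116). Without subtype A replicate 1 the calls of Dcn (0.42) and Lamb2 (-0.50) were lost, and that of Fbn1 without replicate 2 (-0.53) or replicate 3 (-0.69). Against sgActin and YAPS127A, each subtype had 19 members higher and 1, Dcn, lower. In those comparisons 41.7% of genes were higher and 55.6% lower for subtype A, and 44.1% and 55.6% for subtype B. Since 97.3% and 99.6% of the selected genes were called either way, these counts show nothing about the members.

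**Figure D5:**
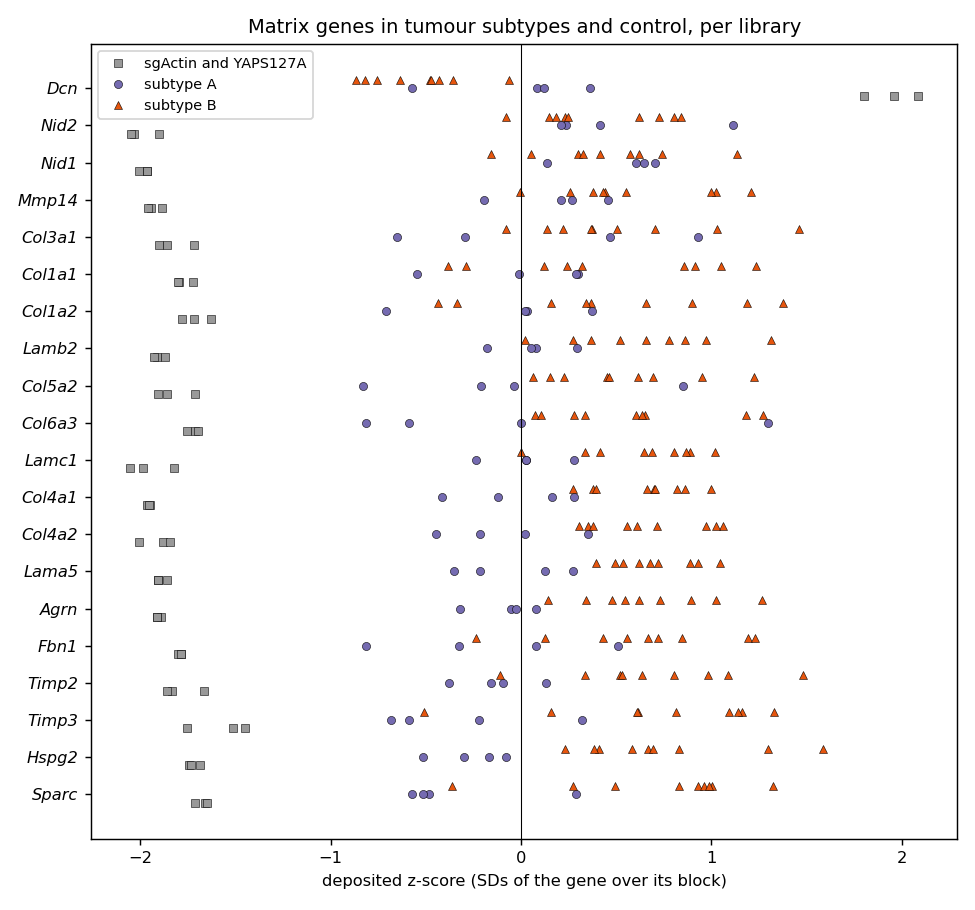
Deposited z-scores of the 20 scored members, in SDs of each gene within its block, with 1 symbol per library for subtype A, subtype B and sgActin and YAPS127A. Hspg2, Lama5 and Agrn separate the subtypes without overlap, Nid1 and Nid2 overlap, and Dcn is highest in the control.

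Other matrix genes were taken from lists of neighbouring pathways. Their counts stand beside 17.2% of all tested genes higher and 20.8% lower in induced samples. Some of these genes passed the filter through their induced level, among them Pcolce, Itga3 and Tgif1, with means under 10 in every not induced group. The counts for these lists, here and in the next paragraph, are therefore a description. Of 14 tested genes for collagen synthesis and crosslinking, 8 rose and 3 fell in induced samples (median log2 difference 0.50). Pcolce, which speeds removal of the collagen propeptide, rose by 2.65 (SE 0.23), the transglutaminase Tgm2 by 1.47 (SE 0.19) and the lysyl oxidase relative Loxl3 by 1.36 (SE 0.19), and the collagen glycosyltransferase Colgalt1 by 1.03 (SE 0.14). Of 14 matrix receptors, 6 rose and 1 fell (median 0.35): the laminin-binding integrin chain Itga3 rose by 2.39 (SE 0.20), the hyaluronan receptor Cd44 by 1.11 (SE 0.22) and Itgb5 by 0.96 (SE 0.13). Of 14 TGF beta pathway genes, 5 rose and 0 fell (median 0.44), led by the repressors Tgif1 (1.25, SE 0.29) and Skil (0.97, SE 0.21).

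Of 8 other matrix proteins, 4 rose and 2 fell (median 0.42), with osteopontin, Spp1, higher by 4.56 (SE 0.35), the fibulin Efemp1 higher by 2.16 (SE 0.30) and Ecm1 lower (-1.76, SE 0.26). Of 12 other proteases and inhibitors, 4 rose and 2 fell (median -0.08). Among 18 other collagens only Col4a3, a chain of specialised basement membranes, was tested, and it was not called in induced against not induced. Its group means were 9.82 in wild type, 17.9 with skip1 alone, 12.3 with skip2 alone, 16.7 with skip1 induced, 3.60 with skip2 induced and 15 with dN90 induced. Col4a3 was lower in skip2 induced than in skip2 alone samples (-1.62, SE 0.47) and than in dN90 induced samples (-1.90, SE 0.41), and skip1 induced exceeded skip2 induced samples (1.98, SE 0.40). In the subtype comparison all 6 scored matrix receptors were lower in subtype A than in subtype B, where 20.9% of all genes, selected by the authors, were lower and 40.3% higher. Among them were Bcam (-0.89, SE 0.27), Itgb4 (-0.76, SE 0.30), Cd44 (-0.74, SE 0.25) and Ddr1 (-0.64, SE 0.16). Itgb4 and Bcam, like Itga3, encode receptors for laminin.

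In bulk tissue more cells of a type and more RNA per cell cannot be told apart, so cell markers are given beside the matrix genes. Stellate and fibroblast markers, from a list that shares no gene with the 37 members, summed to 140 to 218 normalized counts in not induced and 107 to 223 in induced libraries, which overlap. Reln, itself a secreted matrix glycoprotein, had the highest level in this list, with group means of 42.6 to 111, and without it the sums were 67.6 to 123 and 81.1 to 145, which also overlap. Of its 5 tested genes 1 rose (Vim, 1.92, SE 0.25) and 1 fell (Reln, -0.70, SE 0.20), and no gene of the list was at 0 in every library. Lrat had group means of 7.94 to 12.2 in not induced and 5.29 to 6.36 in induced groups, so every induced group was lower. Colec11 went the same way (6.44 to 11.3 and 5.31 to 5.89). Hgf (4.95 to 7.33 and 8.72 to 9.34), Cygb (1.95 to 5.64 and 8.04 to 9.66) and Vim (3.90 to 5.97 and 18.1 to 25.8) went the other way, with every induced group higher. The group means of the other listed genes overlapped. Pdgfrb had group means of 6.42 to 10.3 in not induced and 8.74 to 14.2 in induced groups, which overlap, though each induced group was above its reference. Des had group means of 0.57 to 3.67 over all groups, and its conditions also overlapped. Myofibroblast markers summed to 80.9 to 102 in not induced and 92.8 to 161 in induced libraries. Mylk had the highest level in this list, with group means of 56.4 to 96.7, and of its 2 tested genes Mylk rose (0.39, SE 0.13). Acta2, the actin of activated stellate cells, had group means of 0 to 1.95 in not induced and 4.52 to 9.01 in induced groups. Acta2 was too low to be tested. Against the references, Mylk and Thy1 were higher in each induced group. Tagln was higher with skip1 and dN90 and lower with skip2 (19.3 against 26.3). Myh11 was lower with skip1 and skip2 and higher with dN90, and Cnn1 the reverse.

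Markers of other cells differed by type, beside 17.2% of all tested genes higher and 20.8% lower. A gene can pass the filter through its induced level, so the counts of genes in this paragraph are a description. Cholangiocyte markers summed to 9.88 to 38.2 in not induced and 162 to 802 in induced libraries. There 3 of 3 tested genes rose: Spp1, Bicc1 (4.54, SE 0.32) and Pkhd1 (2.43, SE 0.25). Bicc1 had group means of 1.82 to 2.78 in not induced and 48.1 to 101 in induced groups, and Pkhd1 7.44 to 10.9 and 44.5 to 66.7. Without Spp1, which is also counted among the other matrix proteins, they summed to 3.30 to 21.3 and 51.9 to 184. The duct keratin Krt19 had group means of 0 to 1.32, and its conditions overlapped. Krt7, Epcam, Sox9 and Tspan8 were higher in every induced group than in every not induced group. Their highest group means, in that order, were 0.36, 0.58, 0.71 and 0 in not induced and 1.93, 3.75, 6.43 and 1.39 in induced groups. Krt19 and these genes were too low to be tested. Macrophage markers summed to 265 to 414 and 403 to 785, with 7 of 10 tested genes higher. Endothelial markers summed to 308 to 378 and 242 to 445, with 3 of 9 higher and 1 lower. Hepatocyte markers had 6 of 9 lower. In the 3 induced groups the markers of T and NK cells, B cells and neutrophils summed to at most 13. The part of these cell types in the matrix gene differences was not tested.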

How the data were processed

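Total RNA of liver was made into strand-specific libraries, per the labels' protocols. FastQC, STAR, RSEM, DESeq2 and build mm10 are named, per the submitters' processing notes; versions and settings were not given in the sources used here. The authors deposited normalized counts, a signal that is never negative, for 14086 genes in 18 libraries, and a score, a z-score per gene, for 1659 genes that they selected; 16 of the z-scored libraries were scaled together and the other 18 apart. From the values, 1 library that is no column also entered the scaling of the 16, so the SD unit of the subtype differences rests partly on it. In each library about 59.9% of the nonzero values were multiples of a common step (tolerance 0.001), and estimated reads are the column sum divided by that step; these low depths limit the precision of low genes.

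Members and gene lists were chosen with earlier results of these data known. Genes with a mean normalized count of at least 10 were kept. Log2(value + 1), which understates the change of low genes, went into limma 3.58.1 (R 4.3.3) with a trended prior and a coefficient for each group; tests were two-sided and p-values were Benjamini-Hochberg adjusted over all 6592 genes, with calls at 0.05. The z-scores of 16 libraries were tested with limma without a trend. The same procedure was checked on simulated data. Every member could be named, and of each other list up to 4 called genes with the largest differences per comparison. Of the symbols, 98.3% matched GENCODE M21 (GRCm38), which gave positions and exon lengths. Promoter windows are from RefSeq. Replicate numbers follow accession order. Alternatives were other pseudocounts, filters, scalings, weights, depth as a covariate, only the groups compared, all not induced groups as reference, and left-out libraries; voom on estimated reads was added after seeing the data.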

Additional observations from a re-analysis of the deposited data

Results flagged for a closer look

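In 92 pairs of a member and a group of 4 to 9 libraries, 6 held a library whose gap to its nearest neighbour was large for the range of the group; chance gives about 1 in 20. Col4a1 was 64.1 normalized counts in skip1 induced replicate 4, where the other libraries held 39.8 to 45.5, and 98.4 in dN90 induced replicate 4, where the others held 47.7 to 51.0. Fbn1 was 30.7 in skip1 induced replicate 4 (others 19.4 to 21.5). Mmp14 was 15.7 in skip1 induced replicate 2 (others 33.4 to 44.7). The z-score of Nid1 was 0.134 in subtype A replicate 1 (others 0.605 to 0.701) and that of Sparc 0.29 in subtype A replicate 2 (others -0.571 to -0.481).

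The change of Itih5 from its reference differed between groups by the test of the difference itself. It differed by -2.3 on the log2 scale for skip1 minus skip2 and by -2.42 for skip1 minus dN90. The first call held in only 12 of 23 alternatives and the second in 24 of 25.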

How the results depend on the processing

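No paired analysis was possible because the replicate numbers come from accession order and the labels pair no samples. Low depth and 2 libraries in 3 of the groups limit what can be called, and where a comparison was left with 1 library in a group, that library was assumed to vary like the others.

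With 1 library left out at a time, the members called ran from 1 to 3 for skip1 against skip2 induced (3 with all libraries), 1 to 5 for skip1 against dN90 (3), 0 to 3 for skip2 against dN90 (2), 12 to 18 for skip1 against skip1 alone (18), 15 to 18 for skip2 against skip2 alone (19), 12 to 19 for dN90 against wild type (18) and 0 to 1 for the skip1 minus skip2 difference of induction (1). With a mean of at least 50, which left 8 members, the counts were 1 for skip1 against skip2, 1 for skip1 against dN90, 5 for each induced group against its reference, 5 for induced against not induced, and 0 for both differences of induction with skip1. Voom at the deposited scaling called 5, 5 and 4 members between the induced groups in the order above, and voom scaled by total 5 for skip1 against skip2. Shares of all genes are not given for these alternative fits, so the counts show only how member calls moved. Skip2 against dN90 gave 1 with no filter, 0 with only the groups compared and 0 with depth as a covariate. The skip1 minus skip2 difference of induction gave 0 with no filter, 0 with only the groups compared, 0 without skip1 induced replicates 1 and 2 together, and 2 with depth as a covariate. Apart from the filters, which change the members tested, the causes were not tested.

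Scaling by total moved the median of all genes in induced against not induced to 0.50 and upper-quartile scaling moved it to 0.12, against -0.01. Higher and lower calls over all genes were then 3382 and 551, and 1570 and 1043, with 1136 and 1372 in the deposited scaling and 1226 and 1130 with quantile normalization; members higher and lower were 24 and 0, 20 and 1, and 21 and 1. Lamb1, never called in that comparison, turned to 0.11 with upper-quartile scaling, 0.06 with array weights, 0.50 with voom scaled by total, and with 1 library left out ran from -0.17 to 0.12.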
